A study of Homo sapiens with 9 samples.

Results

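TRIM16 and TRIM16L are a pair of closely related genes on the short arm of human chromosome 17, and both rose in AC16 cells treated with CDDO-Me. Their rows were found by Ensembl identifier, ENSG00000221926 for TRIM16 and ENSG00000108448 for TRIM16L, and are 2 of the 58299 genes in the count table. They were selected on their measured rise, that is on the log2 fold changes of treated against vehicle libraries, so their differences from vehicle are given below as a description, without a test. RNA was measured in 9 libraries of AC16, a human line obtained by fusing adult ventricular heart cells with fibroblasts that carry SV40 sequences. Vehicle cells (3 libraries) received 0.1% DMSO over 72 h. Treated cells received CDDO-Me at 100 nM, over 24 h in 3 libraries and over 72 h in 3 others. A 24 h vehicle was not analysed here, and the comparison of 24 h with DMSO therefore mixes culture time with treatment. CDDO-Me, or bardoxolone methyl, belongs to the synthetic triterpenoids and modifies KEAP1, the adaptor protein through which the transcription factor NRF2 is marked for destruction.

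TRIM16 (also called EBBP) belongs to the tripartite motif family, most of whose members are ubiquitin ligases. It has B-box, coiled-coil and PRYSPRY domains but no RING finger. The protein is known to bind galectin-3 and to help direct autophagy to damaged lysosomes and other membranes, and it has been linked to the NRF2, KEAP1 and p62 (SQSTM1) proteins in the handling of misfolded protein. TRIM16L (also called TRIM70) is its shorter copy, about which less is known. GENCODE 29 lists it as protein-coding, while the RefSeq table lists it as a transcribed pseudogene.

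In the deposited gene models (GRCh38), TRIM16 lies on the minus strand at chr17:15627960-15684311 with 5640 exonic bases, and TRIM16L on the plus strand at chr17:18697998-18736118 with 4329. GENCODE 29 gives 26 transcripts for TRIM16, of which 12 have a coding sequence, and 16 for TRIM16L, of which 1 does. The longest TRIM16 reading frame has 564 codons and that of TRIM16L has 348. The whole TRIM16L reading frame aligned without a gap to bases 649 to 1692 of the TRIM16 reading frame, counted from its start codon, so that the first 648 coding bases of TRIM16 have no counterpart in the reading frame of TRIM16L. Of the 1044 aligned bases 1030 were identical (98.7%). The 14 differences fell in separate codons, 9 of which code for another amino acid and 5 for the same one.

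Within the aligned coding sequence, the reads that can separate the copies are those that cover a difference. The sequences below show a stretch with differences and a stretch without. The first pair is the 150-base stretch within a single exon that holds the most differences. It lies in exon 12 of the TRIM16 transcript with the longest reading frame (chr17:15628735-15628884, minus strand) and in exon 5 of its TRIM16L counterpart (chr17:18735191-18735340, plus strand). Capitals mark the 5 positions at which the copies differ, C1477T, C1497T, G1506A, A1543T and A1575G, with the TRIM16 base first and positions counted from the TRIM16 start codon.
TRIM16: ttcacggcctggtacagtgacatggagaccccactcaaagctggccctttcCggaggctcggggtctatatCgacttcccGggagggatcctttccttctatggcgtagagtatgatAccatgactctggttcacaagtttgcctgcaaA
TRIM16L: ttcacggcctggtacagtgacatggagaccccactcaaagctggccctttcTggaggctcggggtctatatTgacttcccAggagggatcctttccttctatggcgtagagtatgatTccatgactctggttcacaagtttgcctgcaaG
The second pair is a stretch of the same length and the same exons in which no base differs, at chr17:15629029-15629178 in TRIM16 and chr17:18734897-18735046 in TRIM16L. A read that lies wholly inside it carries no base that tells the copies apart.
TRIM16: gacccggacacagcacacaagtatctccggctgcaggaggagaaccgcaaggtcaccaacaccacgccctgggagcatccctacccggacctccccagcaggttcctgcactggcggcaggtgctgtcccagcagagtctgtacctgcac
TRIM16L: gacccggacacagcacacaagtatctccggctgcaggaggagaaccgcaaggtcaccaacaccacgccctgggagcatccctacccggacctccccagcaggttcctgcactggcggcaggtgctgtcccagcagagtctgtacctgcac
The longest run without a difference in the aligned coding sequence was 220 bases, and 5 runs had at least 100. Sequences are those of the GENCODE 29 transcripts.

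Over all annotated transcripts, most of the sequence was not shared between the genes. Of all distinct 50-base words in TRIM16 transcripts, 28.9% also occurred in TRIM16L, and 39.4% of those of TRIM16L occurred in TRIM16. At 75 bases these shares were 19.3 and 26.7%, and at 100 bases 13.2 and 18.5%. Read length, and what was done with reads matching more than 1 place, is not given in the sources used here. TRIM16 also shares 1327 of its 5640 exonic bases with ENSG00000251537, a gene model on the same strand that reaches from the region downstream into TRIM16, and 357 with the antisense model ENSG00000266261. In all, 28.7% of TRIM16 exonic bases are shared with another gene model, against 2.91% for TRIM16L. Those overlapping models took few reads, 26 and 3 counts over 9 libraries for the pair at TRIM16. Part of the TRIM16 signal may therefore be missing or assigned elsewhere, and levels of the copies are uncertain to that extent.

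Total counts were 16898977 to 27910031 per library. Of 13 cardiomyocyte genes, 12 averaged under 1 CPM (normalised read count, scaled to library size) and 6 had no count in any library, among them MYH6, MYH7 and NKX2-5. TTN averaged 6.34 CPM. All 11 fibroblast genes passed the filter, with a summed level of 17920 to 26510 CPM. Their median relative to DMSO (log2) was −0.43 in CDDO-Me 24 h replicate 3, against 0.33 and 0.25 in 24 h replicates 1 and 2 and −0.02 to 0.08 in all other libraries. CDDO-Me 24 h replicate 3 stood apart from the other 24 h libraries: its median absolute log2 difference from them was 0.244 and 0.27, against 0.137 between replicates 1 and 2. In that library the median of 5 nuclear-retained RNAs was −0.62 relative to the DMSO mean (log2), while replicates 1 and 2 had 0.23 and 0.63. The DMSO libraries had 0.40, −0.08 and −0.42, and those of 72 h lay between −0.65 and −0.5. The summed level of 9 epithelial, endothelial and immune genes was 26.0 to 28.3 CPM in DMSO, 20.0 to 21.7 at 24 h and 12.6 to 12.8 at 72 h. KRT19 alone averaged 14.2 CPM of that sum, and the list's median relative to DMSO (log2) was −0.20, 0.29 and 0.38 in the 24 h libraries and −0.2 to −0.32 at 72 h. The part of these differences in the results below was not tested.

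TRIM16 was low and even in vehicle cells, at 20.3, 19.6 and 19.7 CPM in replicates 1 to 3. After 24 h of CDDO-Me the libraries held 60.6, 64.1 and 116.5 CPM, and after 72 h 123.1, 118.6 and 110.4 CPM. Every treated library lay above every vehicle library, and the third 24 h library fell inside the range of the 72 h group. The means (± SD, n = 3) were 19.9 ± 0.336 CPM in the vehicle group, 80.4 ± 31.3 CPM after 24 h and 117.4 ± 6.44 CPM after 72 h. The log2 fold change against DMSO was 2.02 ± 0.23 (SE, 4.06-fold) at 24 h and 2.56 ± 0.23 (5.91-fold) at 72 h. Both comparisons use the same DMSO libraries, and in bulk RNA more cells with the transcript and more transcript per cell cannot be told apart. The 24 h value was 1.65 ± 0.08 without CDDO-Me 24 h replicate 3.

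TRIM16L started at nearly the same read level and rose further. Its vehicle libraries held 20.2, 22.5 and 23.7 CPM, the 24 h libraries 154.7, 156.5 and 279.1 CPM, and the 72 h libraries 271.6, 283.3 and 270.2 CPM. Again no treated library overlapped the vehicle group, while replicate 3 of the 24 h group lay within the 72 h range. Group means were 22.1 ± 1.78 CPM (SD, n = 3), 196.8 ± 71.3 and 275.0 ± 7.21. The log2 fold change was 3.15 ± 0.23 (SE, 8.90-fold) at 24 h and 3.63 ± 0.23 (12.4-fold) at 72 h, and the former was 2.81 ± 0.08 without the same replicate. Of all 14965 genes tested, 0.969% were called higher at 24 h and 2.89% at 72 h by edgeR at an adjusted p under 0.05, and both copies were among them, which is how they were chosen. Among the 9776 tested genes with a mean log2 CPM of at least 3, TRIM16L ranked 2 by log2 fold change at either time, and TRIM16 ranked 8 at 24 h and 9 at 72 h. Among all tested genes TRIM16L ranked 11 and 9, and TRIM16 30 and 32.

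**Figure D1:**
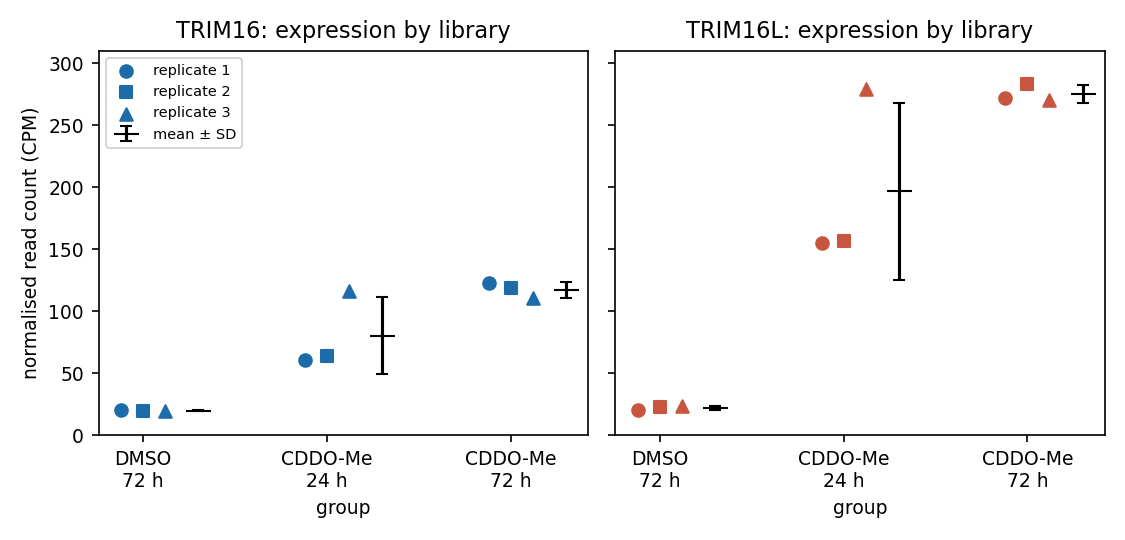
Normalised read count (CPM, y axis) of TRIM16 (left) and TRIM16L (right) in each library of the 3 groups (x axis); symbols are replicates, and the bar beside them is the mean ± SD of 3 libraries. Vehicle libraries sit between 19.6 and 23.7 CPM, and CDDO-Me 24 h replicate 3 (116.5 and 279.1 CPM) sits with the 72 h libraries.

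From 24 h to 72 h of treatment neither gene passed the test. The log2 difference was 0.54 ± 0.22 (SE) for TRIM16 and 0.48 ± 0.20 for TRIM16L, with adjusted p of 0.333 and 0.36 in edgeR's quasi-likelihood test (unadjusted p 0.0331 and 0.0436). In this comparison, which was not the one that chose the genes but uses the same treated libraries, 0.448% of tested genes were called higher. Without CDDO-Me 24 h replicate 3 both passed, at 0.92 ± 0.08 and 0.82 ± 0.07 (adjusted p 3.7e-07 and 4.5e-07). Leaving out any other library left adjusted p between 0.354 and 0.664. Whether the test passed thus depended on that library, in which TRIM16 stood 1.87-fold and TRIM16L 1.79-fold above the mean of replicates 1 and 2.

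Per kilobase of full exonic length, TRIM16L had the higher value in every group. That length counts all annotated exons, not the transcripts in use, and how shared reads were assigned is unknown. The comparison of levels between the genes is therefore approximate in every group. In DMSO the order itself is uncertain, since reads in the 28.7% of TRIM16 exonic bases shared with other models may not have been counted. TRIM16L stood at 5.11 ± 0.41 CPM per kb (SD, n = 3) in DMSO against 3.52 ± 0.0596 for TRIM16. After 24 h it was at 45.5 ± 16.5 against 14.3 ± 5.56, and after 72 h at 63.5 ± 1.67 against 20.8 ± 1.14. The ratio of TRIM16L to TRIM16 counts within a library does not depend on library size. It was 0.997, 1.15 and 1.20 in the vehicle libraries, 2.55, 2.44 and 2.40 after 24 h, and 2.21, 2.39 and 2.45 after 72 h. In other words TRIM16L made up 49.9 to 54.6% of the reads of the pair in vehicle cells and 68.8 to 71.9% in treated cells, with no overlap between vehicle and treated libraries. On the log2 scale the ratio was higher than in DMSO by 1.15 ± 0.085 (SE) at 24 h and by 1.08 ± 0.092 at 72 h. These differences come from the contrasts that chose the genes and are not tested. Between 72 h and 24 h the ratio differed by −0.07 ± 0.053 (log2; two-sided exact permutation test p = 0.3, n = 3 per group, smallest possible p 0.1). CDDO-Me 24 h replicate 3, which stood apart in the level of both genes, had a ratio within the range of the 72 h libraries. Counting the copies as 1 gene gave a log2 fold change of 2.72 ± 0.22 at 24 h and 3.22 at 72 h.

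**Figure D2:**
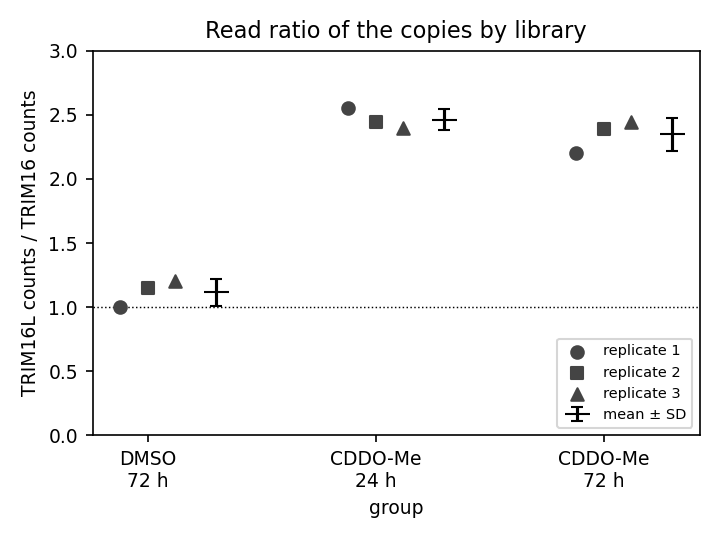
Ratio of TRIM16L counts to TRIM16 counts (y axis) in each library of the 3 groups (x axis), with the mean ± SD of 3 libraries beside them; the dotted line marks equal counts. Vehicle libraries lie at 0.997 to 1.20 and treated libraries at 2.21 to 2.55, with CDDO-Me 24 h replicate 3 among the other treated libraries.

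TRIM16 and TRIM16L lie in a duplicated block, and several neighbours also exist as a pair, in mirrored order: ZNF286A and ZNF286B (zinc finger genes) and the pseudogenes UBE2SP1 and UBE2SP2 upstream, FBXW10B and FBXW10 (F-box genes) and TVP23C and TVP23B (Golgi membrane proteins) downstream. Within 250 kb, 31 gene models surround TRIM16 and 32 surround TRIM16L, of which 6 and 10 passed the filter on low counts. Of the 15 that had counts in DMSO, 0 were called at 24 h, at 72 h or between them (edgeR, adjusted p under 0.05). At an unadjusted p under 0.05, 1 was higher and 0 lower at either time against DMSO. Of all tested genes 0.969% were called higher and 1.18% lower at 24 h, and 2.89 and 3.13% at 72 h. Between the times 0.448 and 0.568% were. With 15 genes a count of 0 lies near these shares and shows nothing particular to the neighbours. The remaining tested neighbour was FBXW10, which begins 7906 bases beyond the end of TRIM16L on the same strand.

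FBXW10 had no count in any of the 3 vehicle libraries, and 13, 21 and 5 counts after 24 h and 17, 26 and 22 after 72 h. Each treated library therefore held reads, with the fewest in CDDO-Me 24 h replicate 3. That library had the most TRIM16L reads but also the largest total counts (27910031). Its TRIM16L level (279.1 CPM) lay within the range of the 72 h libraries (270.2 to 283.3 CPM). No count in the vehicle group allows up to 3 counts, or 0.0503 CPM. The summed treated counts, per total, stood 12.1-fold above that limit at 24 h and 22.1-fold at 72 h. These values allow for counting error in the vehicle group only, not for error or spread among treated libraries. CDDO-Me 24 h replicate 3 alone held 0.183 CPM. FBXW10 passed the filter on low counts only through its treated libraries, so no test against DMSO is given. Relative to TRIM16L, FBXW10 had 4.89, 6.80 and 0.655 counts per 1000 TRIM16L counts in the 24 h libraries and 3.03 to 4.87 in those of 72 h. The kit does not keep the strand of these few reads.

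FBXW10B, which begins 8448 bases beyond the end of TRIM16, had too few reads for the test. It held 2, 1 and 4 counts in vehicle libraries, 6, 9 and 4 after 24 h and 8, 11 and 16 after 72 h. The summed counts per total were 2.53 times (exact 95% counting interval 1.02 to 7.13) the vehicle level at 24 h and 5.11 times (2.23 to 13.6) at 72 h. These intervals cover counting error only. FBXW10 and FBXW10B are themselves near copies: the RefSeq windows of 300 bases around their starts (GRCh38.p14) differ at 2 bases, so reads may pass between them.

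On the far side of the F-box genes, TVP23C had a log2 fold change of 0.21 at 24 h and −0.02 at 72 h, and its copy TVP23B −0.08 and 0.04. On the upstream side ZNF286A was at 0.05 and 0.01, ZNF286B at 0.23 and 0.04, UBE2SP1 at 0.48 and 0.36 and UBE2SP2 at 0.26 and 0.09. Among the other tested neighbours, at various distances, PRPSAP2 was at 0.22 and 0.21, FAM83G at 0.13 and −0.05 and MEIS3P1 at 0.15 and 0.34. FOXO3B was at 0.09 and 0.00, PAIP1P2 at −0.10 and 0.12, CCDC144BP at 0.38 and 0.59 and AC026271.3 at −0.24 and 0.11. ENSG00000265519 and ENSG00000276855 were at −0.24 and 0.04 at 24 h and −0.06 and 0.27 at 72 h. The median over the tested neighbours was 0.10 and 0.14 around TRIM16 and 0.18 and 0.10 around TRIM16L. The other gene models with 10 or more counts (CDRT4, TVP23C-CDRT4, PPIAP53, ENSG00000266538, ENSG00000251537, LGALS9C, FAM106A, ENSG00000227077, TBC1D28 and ENSG00000265478) held at most 31 counts over 9 libraries and were not tested. CDRT4 stood at 5.62 times the vehicle level at 72 h (exact 95% counting interval 1.23 to 52.1). ENSG00000266538 stood at 2.67 times (1.08 to 7.47) at 24 h. The other intervals of these models included the vehicle level. LGALS9C and FAM106A had no vehicle count and 10 and 9 summed counts at 24 h, 3.11-fold and 2.80-fold above the vehicle limit. At 72 h they held 1 and 4. These values cover counting error only.

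**Figure D3:**
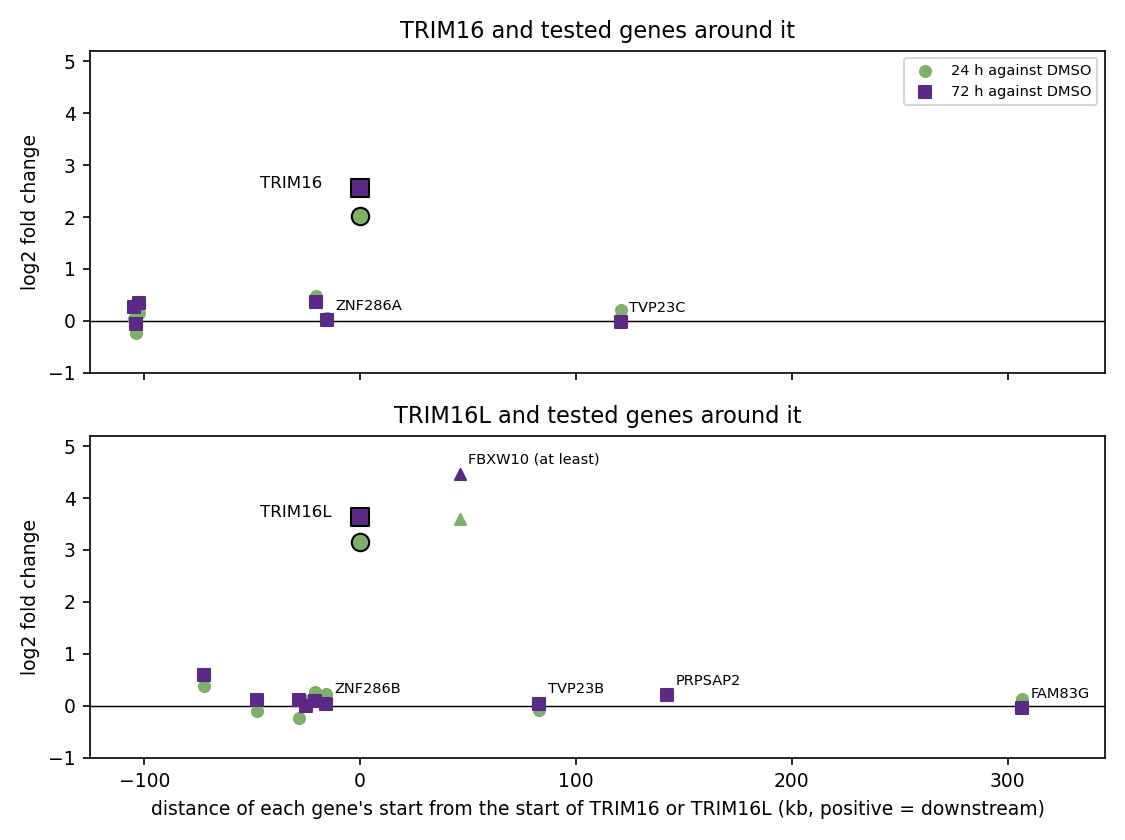
Log2 fold change against DMSO (y axis) at 24 h and 72 h of TRIM16 (top) and TRIM16L (bottom), outlined, and of the tested genes around them, by distance of their starts in the direction of transcription (x axis, kb). Triangles, labelled at least, are the summed FBXW10 counts over the vehicle limit (12.1-fold and 22.1-fold), without error of the treated counts. The other neighbours lie between −0.24 and 0.59.

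The RefSeq start window of TRIM16 (chr17:15682902-15683201, GRCh38.p14, minus strand) was searched on both strands for TGACNNNGC, the core of the antioxidant response element to which NRF2 binds, and for the looser TGANNNNGC, which contains it. Neither occurs in that window. The window lies inside the deposited TRIM16 gene model, and other starts of TRIM16 were not searched. TRIM16L had no RefSeq start window in the set used, so it was not searched. The motifs occur in 13.4 and 41.8% of all 35116 RefSeq start windows of that length.

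The regulators of NRF2 showed few changes at the RNA level beside the rise of the copies. NFE2L2, the gene of NRF2, was at 103.3 CPM in DMSO, 99.9 at 24 h and 108.2 at 72 h, and KEAP1 at 118.5, 141.9 and 146.4 CPM. Neither passed (adjusted p 0.0806 to 0.885 in edgeR), and KEAP1 (0.30 ± 0.10 at 72 h) passed at 72 h without CDDO-Me 24 h replicate 3 (0.00317). Of 17 regulators, all tested, 2 rose at 24 h and 2 rose and 1 fell at 72 h (0.969, 2.89 and 3.13% of all tested genes). MAFG, a small partner protein of NRF2 on DNA, rose by 0.70 ± 0.10 and 0.77 ± 0.10 (log2, SE; adjusted p 0.0014 and 0.000239). SQSTM1, the gene of the autophagy receptor p62, which also captures KEAP1, rose by 0.95 ± 0.19 and 1.08 ± 0.19 (adjusted p 0.0382 and 0.0109). Its 24 h value was 0.63 without CDDO-Me 24 h replicate 3, and the 24 h call was lost when any 1 DMSO or 72 h library was left out (adjusted p up to 0.145). NFE2L3, a relative of NRF2, fell by 0.86 ± 0.12 on the log2 scale at 72 h (adjusted p 0.000494) and was at −0.16 at 24 h. Between 24 h and 72 h it was the only regulator called, as lower (0.568% of all tested genes were), and 2 were lower and 0 higher at an unadjusted p under 0.05. BACH1, a repressor at NRF2 sites, was at −0.23 and 0.05 and passed as lower at 24 h without CDDO-Me 24 h replicate 3 (−0.50, adjusted p 0.0472). The list's median log2 fold change was −0.02 at 24 h and −0.01 at 72 h, beside 0.007 and −0.001 over all tested genes. Both log2 fold changes of TRIM16 and TRIM16L (at least 2.02) lay above the highest of this list (SQSTM1 at 1.08). The pair was chosen for its rise in these same values, so this order is only a description.

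Established NRF2 targets rose as well. Of 30 targets, all tested, 21 rose at 24 h and 26 at 72 h, with none lower (edgeR; 0.969 and 2.89% of all tested genes were called higher), and the medians were 1.12 and 1.53. The lowest of the 30 log2 fold changes was 0.37 at 24 h and 0.61 at 72 h, so no member lay below 0, and none was lower by DESeq2, limma-voom or an unadjusted p under 0.05. Leaving out DMSO replicate 2 gave 13 at 24 h, and leaving out CDDO-Me 24 h replicate 3 gave 28. NQO1, a quinone reductase, rose by 2.06 ± 0.10 and 2.90 ± 0.11 (adjusted p 9.52e-08 and 1.26e-09). EPHX1, an epoxide hydrolase, rose by 1.19 ± 0.10 and 1.88 ± 0.10. TKT, the transketolase of the pentose phosphate pathway, rose by 0.86 ± 0.07 and 1.05 ± 0.07. FTL, the ferritin light chain, rose by 1.29 ± 0.14 and 2.28 ± 0.14. ABCC2, an efflux pump, rose by 1.77 ± 0.27 and 1.56 ± 0.27, and GSTM3, a glutathione transferase, by 0.71 ± 0.11 and 1.42 ± 0.11. These lists were chosen with earlier results of these data known.

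Between 24 h and 72 h of treatment, 6 of the 30 targets passed as higher (0.448% of all tested genes did). That count was 26 when CDDO-Me 24 h replicate 3 was left out, and 3 or 4 when any 1 of the 72 h libraries was. NQO1 was higher by 0.83, EPHX1 by 0.69, FTL by 0.99 and GSTM3 by 0.70 (adjusted p 0.000992 to 0.0069), while TRIM16 and TRIM16L did not pass, as given above. The call of GSTM3 was lost without CDDO-Me 72 h replicates 2 or 3 (adjusted p 0.0528 and 0.0548). The difference of the copies from these targets was not tested. CDDO-Me 24 h replicate 3 exceeded the mean of replicates 1 and 2 in 26 of the 30 targets, with a median ratio of 1.46 (range 0.926 to 4.42), against 0.986 over all tested genes. The ratios of TRIM16 (1.87) and TRIM16L (1.79) lay inside that range, below those of 10 and 11 targets.

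In the list of 24 genes of autophagy and of the response to damaged membranes, in which the TRIM16 protein acts, few members rose. SQSTM1, which also stands in the list of regulators, alone passed at 24 h (0.969% of all tested genes were called higher), and 3 members passed at 72 h (2.89%), with none lower at either time by edgeR, DESeq2 or limma-voom, or unadjusted. The 24 h count rose to 2 when DMSO replicate 1 or CDDO-Me 24 h replicate 2 was left out and to 3 for CDDO-Me 24 h replicate 3, and dropped to 0 for DMSO replicate 2, DMSO replicate 3 or any single 72 h library. LGALS3, the gene of galectin-3, the lectin that marks broken membranes and binds TRIM16, rose by 0.81 ± 0.15 (log2, SE) at 72 h (adjusted p 0.00587) and was at 0.37 ± 0.15 at 24 h (adjusted p 0.32), where it passed without CDDO-Me 24 h replicate 3 (0.56 ± 0.09, adjusted p 0.000482). TFE3, a regulator of lysosome genes, rose by 0.38 ± 0.09 at 72 h (adjusted p 0.0239), a call lost when DMSO replicate 2, DMSO replicate 3 or any single 72 h library was left out (up to 0.139). TFEB, its relative, was at 0.17 and −0.23, the receptor gene OPTN at −0.17 and −0.07, and VCP, an abundant segregase of damaged cargo, at 0.12 and 0.10. The list's median was 0.07 at both times. Between 24 h and 72 h the 3 tools (edgeR, limma-voom and DESeq2) called no member, with 1 higher and 1 lower at an unadjusted p under 0.05. Of all tested genes edgeR called 0.448% higher and 0.568% lower, so no call among 24 genes shows nothing particular to the list. Without CDDO-Me 24 h replicate 3, 3 members passed as higher and 1 as lower, beside 795 and 1048 of all genes.

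The TRIM family was taken as the genes whose symbol is TRIM and a number, with or without a final L. Genes under other symbols were not counted. Of 66 such genes other than the copies, 41 passed the filter on low counts. None was called higher at 24 h or 72 h (0.969 and 2.89% of all tested genes), none was called lower at 24 h and 1 was at 72 h (1.18 and 3.13%), by edgeR at an adjusted p under 0.05. DESeq2 and limma-voom gave the same counts. At an unadjusted edgeR p under 0.05, 2 were higher and 2 lower at 24 h, and 3 higher and 5 lower at 72 h. Without CDDO-Me 24 h replicate 3, 3 were called higher and 1 lower at 24 h, and 2 higher and 2 lower at 72 h. The counts at an adjusted p under 0.05 in the reported fit lay near the shares over all tested genes and show nothing particular to the family. The 41 log2 fold changes ran from −1.17 to 0.41 at 24 h and from −0.96 to 0.71 at 72 h, with medians of −0.01 and −0.02. The gene that fell was TRIM8 (−0.41 ± 0.08, adjusted p 0.00539), and the highest value was that of TRIM36 (0.71 ± 0.23, adjusted p 0.0851, and 0.0366 without CDDO-Me 24 h replicate 3). TRIM28, a corepressor and the most abundant member, was at 949.1, 930.0 and 936.2 CPM in DMSO, 24 h and 72 h. The summed level of the family without the copies was 2436 ± 86.3 CPM (SD, n = 3), 2390 ± 69.4 and 2352 ± 11.4. TRIM16 and TRIM16L together took 1.70 ± 0.116% of the reads of the family in DMSO, 10.3 ± 3.22% at 24 h and 14.3 ± 0.397% at 72 h. Ordered by CPM per kb among 68 family genes, TRIM16L went from place 18 in DMSO to place 2 at both times, behind TRIM28, and TRIM16 from place 24 to 6 and 4.

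The genes with the most similar course over the 9 libraries were found by the root mean square difference of log2 (CPM + 0.1), each gene relative to its own DMSO mean, among tested genes with a mean log2 CPM of at least 1. For TRIM16 the nearest was NQO1 (0.273), followed by LINC00942, a long non-coding RNA (0.305), SLC7A11, the cystine transporter (0.349), FTH1, the ferritin heavy chain (0.352), ZNF469 (0.357) and ENPP2, which encodes autotaxin (0.419). For TRIM16L they were HKDC1, a hexokinase family gene (0.579), AKR1C1, an aldo-keto reductase (0.599), the oxidative stress gene OSGIN1 (0.604), SLC7A11 (0.643), NQO1 (0.746) and LINC00942 (0.77). TRIM16L thus had no profile as near to it as those near TRIM16. The copies differed from each other by 0.912, more than either did from any of its 6 nearest genes. NQO1, SLC7A11 and FTH1 for TRIM16, and AKR1C1, OSGIN1, SLC7A11 and NQO1 for TRIM16L, belong to the target list above. All genes share the same libraries, so likeness here is a description.

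**Figure D4:**
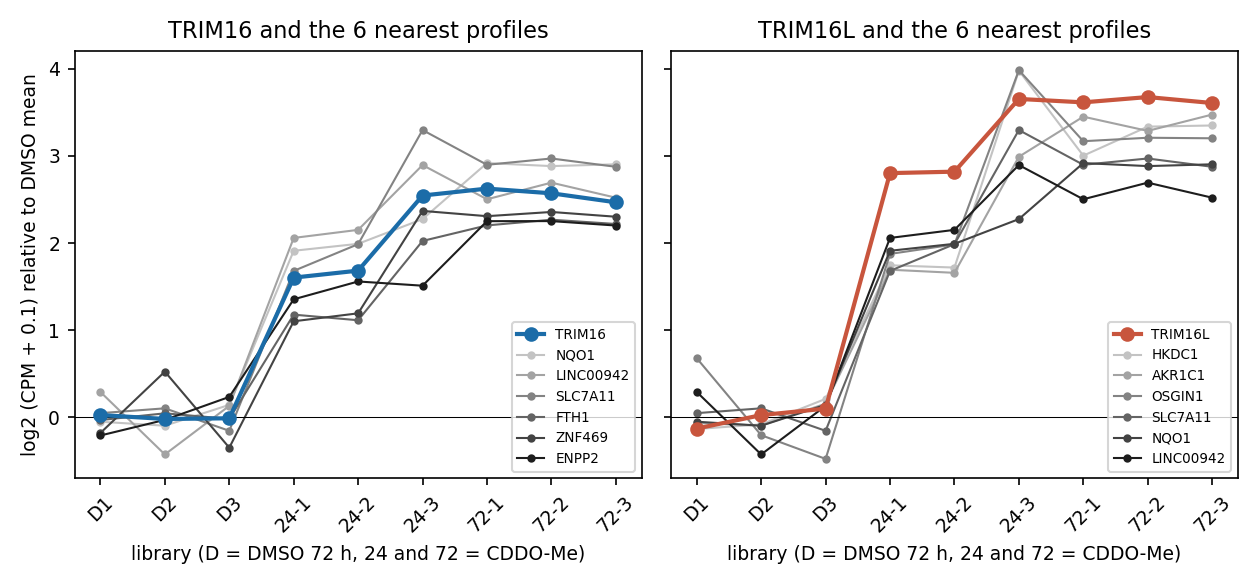
Log2 (CPM + 0.1) relative to each gene's DMSO mean (y axis) in the 9 libraries (x axis; lines only join values of 1 gene), for TRIM16 (left) and TRIM16L (right) in colour and the 6 genes nearest to each in grey. TRIM16 runs among its nearest genes, whereas TRIM16L lies above its own in CDDO-Me 24 h replicates 1 and 2 and at 72 h.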

How the data were processed

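What the authors deposited is 1 table of raw counts, whole reads per Ensembl gene over its exons, without normalisation. Per the submitters' processing notes, STAR, SAMtools, Subread and featureCounts were used with hg38 (GRCh38). For versions, annotation release, strand and multi-mapping, the settings were not given in the sources used here. Libraries were polyA-selected and unstranded, per the labels' protocols. Exonic length comes from the deposited table. Titles use CDDO where the treatment label gives CDDO-Me, which was followed.

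Groups, replicate numbers and columns were matched by label. Since no label tells whether replicates are separate cultures, the p-values reflect only the variation among these libraries, which may be technical. No replicate pair was identical, and the chi-square of each over its degrees of freedom was at least 2.08, above sampling noise. Of 58299 gene IDs, 57717 were found in the table of gene names and 58179 in GENCODE 29.

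The count test was edgeR 4.0.16 in R 4.3.3 (TMM factors, filterByExpr, robust quasi-likelihood fit), with 9 libraries in 1 fit and 6 residual degrees of freedom, on 14965 genes, with Benjamini-Hochberg adjustment over all of them and a threshold of 0.05. SEs were obtained by dividing log2 fold changes by the root of F. A count of 0 allows up to 3 counts, 0.107 to 0.178 CPM per library, for counting error only. The script was tested on simulated data. Alternatives were other size factors, no filter, DESeq2 1.42.0, limma-voom (limma 3.58.1), the replicate number as a block, 2-group fits, left-out libraries and summed copies.

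The genes and lists were chosen with earlier results of these data known. Genes named were the pair, NFE2L2, KEAP1, up to 4 per list and comparison with the smallest adjusted p, the strongest of the other direction (where none passed, the most abundant), gene models within 250 kb with at least 10 counts, and the 6 nearest profiles per gene. A gene that this rule names but the text does not is not reported here.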

Additional observations from a re-analysis of the deposited data

Results flagged for a closer look

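Among the genes named, 6 differed in their response between the times, by the edgeR test of 72 h against 24 h of CDDO-Me, which is the difference of both effects because they share the DMSO libraries. The 24 h group has no vehicle of its own time here. The log2 difference was 0.83 for NQO1, 0.69 for EPHX1, 0.99 for FTL, 0.76 for ENPP2, 0.7 for GSTM3 and −0.7 for NFE2L3. The NFE2L3 call (adjusted p 0.0105) ended without CDDO-Me 24 h replicate 2 or any 1 of the 72 h libraries (up to 0.102).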

How the results depend on the processing

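The log2 fold changes of TRIM16 and TRIM16L kept their direction under every alternative run. Leaving out 1 library gave 1.65 to 2.19 (TRIM16) and 2.81 to 3.3 (TRIM16L) at 24 h, 2.53 to 2.6 and 3.57 to 3.69 at 72 h, and 0.37 to 0.92 and 0.33 to 0.82 for 72 h against 24 h (adjusted p 3.7e-07 to 0.664). The ratio gave 1.07 to 1.2, 1.0 to 1.13 and −0.1 to −0.03. DMSO replicate 1 stood apart less than CDDO-Me 24 h replicate 3. Its median absolute log2 difference from the other DMSO libraries was 0.185 and 0.206, against 0.151 between those. Without both libraries, 24 h gave 1.66 and 2.75. For 72 h against 24 h this gave 0.91 and 0.82 (edgeR adjusted p 3.16e-11 and 5.89e-12). The libraries left out were picked from these same data, so these adjusted p are a description. With the copies summed, with or without overlapping models, 24 h gave 2.72, 72 h 3.22 and 72 h against 24 h 0.50.

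Deviations of same-numbered libraries correlated weakly, at −0.028 to 0.082, with 0 of 9 pairs over 0.1. Still, 7 of 9 libraries correlated best with their own number, so weak pairing is possible. It was not tested, and the reported fit has no block. With the replicate block, 24 h gave 1.98 and 3.12 and 72 h against 24 h 0.59 and 0.53 (adjusted p 0.343 and 0.241), 128 genes were lower at 72 h than at 24 h, and 1 NRF2 regulator and 0 autophagy genes were higher at 24 h.

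Counts of called genes moved more, and the cause was not tested. Higher and lower at 24 h were 145 and 176 in the reported fit, 306 and 356 without the filter, 245 and 301 with DESeq2, 43 and 57 with only the groups compared, 1825 and 1639 without both libraries, and 57 to 874 and 77 to 783 without 1. At 72 h (432 and 469) they were 835 and 941 with only the groups compared, 1326 and 1398 without both, and 188 to 958 and 212 to 1014 without 1. For 72 h against 24 h (67 and 85) they were 203 and 304 without the filter, 163 and 225 with DESeq2, 53 lower with limma-voom, 1596 and 1875 without both, and 20 to 795 and 11 to 1048 without 1.

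With only the groups compared, 1 regulator, 12 targets and 0 autophagy genes were higher at 24 h, 1 TRIM gene was higher and 2 lower at 72 h, and 1 autophagy gene was lower at 72 h than at 24 h. Without the filter, 3 autophagy genes were higher at 24 h, and 10 targets and 1 autophagy gene were higher and 1 autophagy gene lower at 72 h than at 24 h. Without both libraries, 24 h gave 4 regulators lower, 7 autophagy genes higher and 4 lower, and 6 TRIM genes higher and 5 lower. At 72 h they left 5 autophagy genes higher and 1 lower, and 2 TRIM genes higher and 2 lower. For 72 h against 24 h they left 5 regulators higher and 2 lower, 28 targets higher, 7 autophagy genes higher and 3 lower, and 2 TRIM genes higher and 8 lower. Without 1 library, 24 h gave 1 to 2 regulators higher and 0 to 1 lower, 13 to 28 targets and 0 to 3 autophagy genes higher, and 0 to 3 TRIM genes higher and 0 to 1 lower. At 72 h it gave 0 to 2 TRIM genes higher and 1 to 2 lower. For 72 h against 24 h it gave 0 to 2 regulators higher and 0 to 2 lower, 3 to 26 targets, 0 to 3 autophagy genes higher and 0 to 1 lower, and 0 to 1 TRIM genes higher and 0 to 3 lower. No value called in the reported fit changed sign under any alternative. Of the values not called there, 69 changed sign, in 34 comparisons of single genes, and 1 of these passed with the other sign, VCP for 72 h against 24 h without both libraries (0.14, adjusted p 0.0497).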
